A study of Mus musculus with 8 samples.

Results

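The control-only CTCF regions inside genes are the places within protein-coding genes where CTCF was detected in unstimulated mouse cortical neurons and no overlapping region was listed after stimulation with NMDA. Of the 33815 regions of the control list on the assembled chromosomes, 3117, or 9.22%, overlapped no region of the NMDA list by even 1 bp. Of these, 1448 had their summit (the base of highest enrichment) inside the span of a protein-coding gene and more than 1 kb from every gene end. They were 9.83% of the 14732 control regions inside genes. The other control-only regions lay at gene ends (704) or between genes (965). Membership was chosen from the contrast of the lists itself, so neither the lack of an NMDA region nor the position in a gene is a result.

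DNA bound by CTCF was isolated with an antibody and sequenced (ChIP-seq). The NMDA group is wild-type cortical neurons given 50 µM NMDA, which opens a class of glutamate-gated ion channels, for 10 minutes, with a recovery of 50 minutes in medium without the drug. The control group is wild-type cortical neurons whose treatment is given as none. Both were primary cultures from Swiss-Webster embryos at embryonic day 16, taken on day 13 in vitro, with 2 ChIP replicates and 2 inputs each, 8 samples in all. Etoposide, a topoisomerase inhibitor, is also named in the common growth protocol (50 µM for 30 minutes), and no label assigns it to any sample. Such cultures can hold glia and interneurons beside projection neurons. A CTCF region is no measure of expression, so the cell type could not be checked against its markers here. Each condition is 1 list built by the authors over both replicates. No difference could therefore be set against the spread between replicates, no test is given, and the intervals below cover counting error only and treat regions as independent, which neighbours are not. The read depth is unknown.

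Through an array of zinc fingers CTCF recognises a long DNA motif with a direction, and bound there it halts cohesin, the ring complex that extrudes chromatin loops. Regions at promoters and domain borders are the best known, but many CTCF sites lie within introns, where they can bear on enhancer contacts, on the choice among alternative promoters and on splicing. DNA methylation can keep CTCF from some of its sites. CTCF itself has a control-only region inside its own gene (chromosome 8, 105677639 to 105678573, mm10), with a −log10 p of 79.0, the 24.3rd percentile of the control list. The gene also held 1 control region inside that did overlap an NMDA region.

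Some control-only regions sat on an annotated alternative start of their host gene, and the sequences of these starts are shown because they are the bases under the summits. RefSeq promoter windows of GRCm38.p6, the assembly of mm10, run over 300 bases. Of the 1448 summits, 36 (2.49%, 1.80 to 3.42) fell in such a window, some of them only in a window of another gene. The share was 1.83% in shared control and 1.39% in NMDA-only regions inside genes. The windows below are written along the strand of the gene, and capitals mark a match to the core of the CTCF motif. The letters searched, on both strands, were CC, any 3 bases, AG, any 2 bases and GGC, and no other motif was searched. The strongest of the 4 host starts with a match belongs to Epb41l1, which encodes a protein linking membranes to the cytoskeleton of neurons. The other 3 belong to Dcun1d4, whose product acts in cullin neddylation, to Bdnf, the gene of a neurotrophin that is transcribed from several alternative promoters, and to Efna3, which encodes an ephrin ligand.
Epb41l1, chr2:156420659-156420958, plus strand: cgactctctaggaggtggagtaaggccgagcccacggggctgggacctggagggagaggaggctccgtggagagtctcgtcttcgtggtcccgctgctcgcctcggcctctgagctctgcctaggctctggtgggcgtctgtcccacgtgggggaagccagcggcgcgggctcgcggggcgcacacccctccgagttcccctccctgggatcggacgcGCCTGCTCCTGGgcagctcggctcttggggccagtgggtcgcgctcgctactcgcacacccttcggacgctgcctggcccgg
Dcun1d4, chr5:73490776-73491075, plus strand: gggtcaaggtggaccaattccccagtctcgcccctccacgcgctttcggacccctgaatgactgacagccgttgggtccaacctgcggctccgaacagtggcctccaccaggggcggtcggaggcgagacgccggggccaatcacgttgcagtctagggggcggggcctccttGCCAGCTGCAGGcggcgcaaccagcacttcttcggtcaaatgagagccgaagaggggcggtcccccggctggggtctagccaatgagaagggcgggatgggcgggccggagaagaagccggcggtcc
Bdnf, chr2:109692186-109692485, plus strand: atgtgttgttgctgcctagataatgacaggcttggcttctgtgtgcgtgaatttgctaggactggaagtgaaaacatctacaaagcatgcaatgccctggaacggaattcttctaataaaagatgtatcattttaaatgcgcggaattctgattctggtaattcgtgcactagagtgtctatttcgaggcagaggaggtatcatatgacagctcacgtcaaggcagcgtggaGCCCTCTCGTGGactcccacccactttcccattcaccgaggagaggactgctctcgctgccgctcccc
Efna3, chr3:89321719-89322018, minus strand: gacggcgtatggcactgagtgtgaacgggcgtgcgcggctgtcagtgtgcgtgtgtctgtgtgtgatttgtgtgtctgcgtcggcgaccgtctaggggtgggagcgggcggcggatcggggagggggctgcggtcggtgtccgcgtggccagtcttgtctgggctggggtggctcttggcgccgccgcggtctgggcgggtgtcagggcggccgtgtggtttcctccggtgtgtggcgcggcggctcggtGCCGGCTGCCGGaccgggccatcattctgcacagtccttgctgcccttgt

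All 4 matches lay on the strand opposite to the gene. At Bdnf the summit was base 237 of the window and the match covered bases 233 to 244, so the summit lay within the match. At Epb41l1 the summit was base 239 against a match at bases 219 to 230, and at Dcun1d4 base 195 against 174 to 185. At Efna3 they were farther apart, with the summit at base 163 and the match at 251 to 262. The authors' −log10 p was 114 at Epb41l1, 64.2 at Dcun1d4, 44.2 at Bdnf and 40.2 at Efna3. The Bdnf region (109691357 to 109692694) stood at the 5.78th percentile of the control list, and an NMDA region lay 0.788 kb away.

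The 3 strongest host starts without these letters are shown for comparison, all in lower case. Rarb encodes a retinoic acid receptor, Fam161a a protein of the cilium and Zfp229 a zinc finger protein. Their regions had −log10 p values of 108, 91.5 and 85.5.
Rarb, chr14:16575427-16575726, minus strand: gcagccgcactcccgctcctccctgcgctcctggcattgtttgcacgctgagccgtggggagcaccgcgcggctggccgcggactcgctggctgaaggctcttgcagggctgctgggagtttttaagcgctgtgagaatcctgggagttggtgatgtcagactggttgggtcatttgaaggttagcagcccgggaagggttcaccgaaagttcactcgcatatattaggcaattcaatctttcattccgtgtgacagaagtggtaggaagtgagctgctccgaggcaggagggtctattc
Fam161a, chr11:23008097-23008396, plus strand: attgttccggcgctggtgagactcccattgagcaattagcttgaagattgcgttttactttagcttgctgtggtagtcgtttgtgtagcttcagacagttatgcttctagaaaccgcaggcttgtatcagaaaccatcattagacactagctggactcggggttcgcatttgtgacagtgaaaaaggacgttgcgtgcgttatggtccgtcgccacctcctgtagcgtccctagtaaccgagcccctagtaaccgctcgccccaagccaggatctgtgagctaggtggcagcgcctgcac
Zfp229, chr17:21733474-21733773, plus strand: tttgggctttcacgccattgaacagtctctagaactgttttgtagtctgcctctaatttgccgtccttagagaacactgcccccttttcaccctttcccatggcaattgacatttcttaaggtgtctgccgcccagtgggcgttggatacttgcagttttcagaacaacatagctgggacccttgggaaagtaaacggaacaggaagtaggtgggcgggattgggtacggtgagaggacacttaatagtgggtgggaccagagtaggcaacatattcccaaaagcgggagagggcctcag

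Over all promoter windows that held the summit of a control-only region inside a gene, 6 of 41 (14.6%, 95% Wilson interval 6.88 to 28.4) contained the letters. The 41 windows come from 36 regions, and some overlap each other. The same match at Epb41l1 is counted in both of its windows, which the interval treats as independent. Windows under NMDA-only regions inside genes had a like share, 6 of 40 (15.0%, 7.06 to 29.1). So did windows under control-only regions at gene ends, with 22 of 154 (14.3%, 9.63 to 20.7). Windows under shared control regions inside genes contained the letters more often, in 94 of 268 (35.1%, 29.6 to 41.0), and all 32851 promoter windows in 8.61%. These shares were not matched for signal. Over all regions inside genes the median −log10 p was 174 in shared control and 50.1 in control-only regions. The median window under a control-only region held 19 CpG dinucleotides, against 27.5 under NMDA-only and 20.0 under shared control regions inside genes and 7 over all windows. A match is a string of letters and not a measured site, and its absence says only that these letters were not in the window.

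The control-only regions inside genes were weak members of the control list. Their signal, the −log10 p that the authors deposited for each region, had a median of 50.1 (quartiles 41.5 and 66.2, range 32.8 to 236), against 174 (90.7 and 309) in shared control regions inside genes. As a rank within the control list this was a median percentile of 9.34 (interval 8.70 to 10.0), against 51.7 in the shared ones. Of the 1448 regions, 1437 lay below the median signal of the list, and 761 (52.6%) lay in the weakest 10% of it. The counts fell steeply with signal, from 761 in the weakest to 382, 208, 66, 20, 10 and 1 in the next 6 bins of 10%, and the 3 strongest bins held none. The score of reproducibility between replicates reached its ceiling of 1000 in 87 of 1448 (6.01%), against 71.0% of shared control regions inside genes.

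Control-only regions elsewhere were weak as well. Those inside genes had a median percentile of 9.34, those at gene ends 8.90 (8.20 to 9.77) and those between genes 10.9 (9.65 to 12.2), and these intervals overlap. NMDA-only regions inside genes were weak within their own list in the same way, with a median percentile of 12.5 (11.9 to 13.2). Of the 15926 NMDA regions inside genes, 2662 were NMDA-only, or 16.7%.

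Among all control regions inside genes 9.83% (9.36 to 10.3) were control-only, against 11.6% (10.8 to 12.4) of those at gene ends and 7.43% (6.99 to 7.89) of those between genes. The share inside genes was lower than at gene ends, with a difference of −1.72 points (95% Newcombe interval −2.67 to −0.803), and higher than between genes, with one of 2.40 points (1.74 to 3.06). Signal moved with position, and within bins of the same signal, weighted by the regions inside genes, the differences were −0.879 and 0.246 points. The share inside genes was above that at gene ends in 3 of the bins and below it in 4, and above that between genes in 4 and below it in 4. In the weakest 10% of the list 48.0% (45.6 to 50.5) of regions inside genes were control-only, against 49.4% at gene ends and 45.2% between genes.

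**Figure D1:**
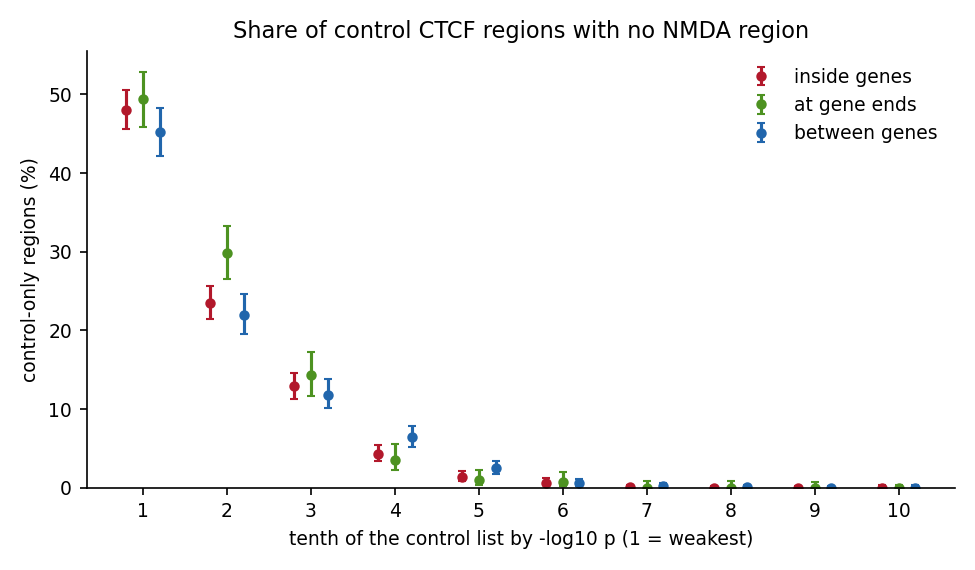
Share of control CTCF regions that overlap no NMDA region (y axis, %) in each 10% bin of the control list by −log10 p (x axis, weakest at the left), for regions inside genes, at gene ends and between genes. Points are shares and bars 95% Wilson intervals. The share inside genes was 48.0% in the weakest bin, 23.5% in the next and 1.36% in the fifth, and in that next bin regions at gene ends stood higher, at 29.8%.

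Control-only regions inside genes were narrower than shared ones and narrower than control-only regions at gene ends. Their median width was 777 bp (interval 761 to 791, quartiles 622 and 993), against 1148 bp in shared control regions inside genes, 1006 bp (971 to 1032) in control-only regions at gene ends and 735 bp (715 to 759) in those between genes. Width moved with signal, and its part in the overlap with NMDA regions was not tested. At the same signal the gap to shared regions was smaller. In the weakest 10% of the list the medians were 710 bp (691 to 736) and 763 bp (743 to 804), in the next bin 778 and 836 bp, and in the one after it 856 and 911 bp. The gap to gene ends remained, with 710 bp inside genes and 953 bp (898 to 1007) at gene ends in the weakest bin. In 94.9% of the control-only regions inside genes the summit lay in the middle 50% of the region, as it did in 95.1% of the shared ones.

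The strongest control-only region inside a gene lay in Ttn, which encodes titin, the giant elastic protein of muscle (chromosome 2, 76865799 to 76867680). It had a −log10 p of 236, the 64.0th percentile of the list, and a width of 1882 bp, and the nearest NMDA region was 22.2 kb away. Next came Unc13b, which encodes a protein that primes synaptic vesicles for release (chromosome 4, 43243840 to 43244881), with 196. Adam5, of a family of membrane metalloproteases, followed with 177 (chromosome 8, 24779007 to 24780192). Cwc27, which encodes a cyclophilin of the spliceosome, had 175 (chromosome 13, 104681027 to 104681977), and the nearest NMDA region lay 107 kb off.

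Next in rank were Il1rapl2, of a family of receptors that includes synapse organisers (chromosome X, 137666773 to 137667624, −log10 p 173) and Heatr5b, which encodes a protein of endosomal transport (chromosome 17, 78808573 to 78809861, 171). They were followed by Rabgap1l, a regulator of Rab GTPases (chromosome 1, 160717551 to 160718552, 170.2), and the corepressor gene Runx1t1 (chromosome 4, 13777492 to 13778936, 169). The last 4 of the 12 strongest were the nucleotide kinase gene Cmpk1 (chromosome 4, 114982536 to 114983931, 169), Csmd3, of a family with complement-like domains (chromosome 15, 48102119 to 48103232, 168), Sarnp, which encodes a nuclear RNA-binding protein (chromosome 10, 128844689 to 128846301, 167), and Cbwd1 (chromosome 19, 24958032 to 24959295, 161). The Rabgap1l and Cwc27 regions had reproducibility scores of 672 and 924, and the other 10 were at 1000. The distance to the nearest NMDA region varied among the 12, being shortest at Cbwd1 (1.93 kb), Rabgap1l (2.19 kb) and Runx1t1 (3.31 kb) and longest at Csmd3 (466 kb).

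Control-only regions inside genes lay a median of 11.9 kb from the nearest NMDA region (quartiles 4.11 and 29.9 kb), and 114 (7.87%) lay within 1 kb of one. The nearest were in Sdsl (chromosome 5, 120466599 to 120467410, 15 bp away), Stk35 (chromosome 2, 129801242 to 129802254, 22 bp) and Prex1 (chromosome 2, 166584052 to 166585408, 36 bp), with −log10 p values of 45.5, 47.4 and 42.9. On the other side of that limit, the control regions inside genes with the least overlap were in Rnf217 (30 bp of overlap, −log10 p 50.6), Epha6 (118 bp, 45.6) and Tbc1d8 (123 bp, 61.6). At the limit of 1 kb from a gene end, the nearest regions counted as inside were in Nkx2-3 (1003 bp, 106), Tln2 (1007 bp, 55.8) and Ltbp3 (1012 bp, 48.2). The nearest ones counted at the end were in Zic5 (984 bp, 50.7), Nhsl2 (981 bp, 53.8) and Maf (974 bp, 56.2). Another control region was a median of 12.8 kb away, against 10.4 kb for shared control regions inside genes. Another control-only region inside a gene lay within 10 kb in 69 of 1448 (4.77%), and any other control region in 620 (42.8%). Control-only regions were only 9.83% of the control regions inside genes, and the 4.77% was not set against a share for a class of that size.

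The regions were spread over many genes. They lay in 1303 of the 19252 protein-coding genes that have any bases more than 1 kb from all gene ends, or 6.77%, and 9 regions lay in 2 overlapping genes at once. Of the host genes 1173 had 1 such region, 110 had 2, 16 had 3 and 4 had 4. The host genes were long, with a median of 82.1 kb (interval 75.4 to 88.9), against 69.9 kb for genes with an NMDA-only region inside, 46.9 kb for genes with a shared control region inside and 21.4 kb for all genes with an interior. The 3 classes held 1448, 2662 and 13284 regions, and a larger class can reach more of the short genes. The medians were not adjusted for these numbers, so their order is no trait of the control-only regions.

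Per length, control-only regions were sparser in long genes. Over 988 Mb of gene interior the density was 1.47 regions per Mb (exact Poisson interval 1.39 to 1.54), against 2.69 (2.59 to 2.80) for NMDA-only and 13.4 for shared control regions. In genes under 20 kb it was 2.95 per Mb (2.56 to 3.40), in those of 20 to 50 kb 1.81, of 50 to 100 kb 1.81, of 100 to 200 kb 1.42, of 200 to 500 kb 1.17 and in genes of 500 kb and over 0.690 (0.577 to 0.818). NMDA-only regions fell in the same order, with 4.67 per Mb in the shortest class and 1.04 in the longest, and so did shared regions, with 28.5 and 5.42. The share of control regions inside genes that were control-only moved far less. It was 9.39% (8.22 to 10.7) in genes under 20 kb, 8.23% (7.34 to 9.22) in those of 20 to 50 kb and 11.3% (9.60 to 13.2) in those of 500 kb and over. A gene of 500 kb or more nonetheless held at least 1 control-only region in 42.5% of cases, against 2.06% of genes under 20 kb.

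**Figure D2:**
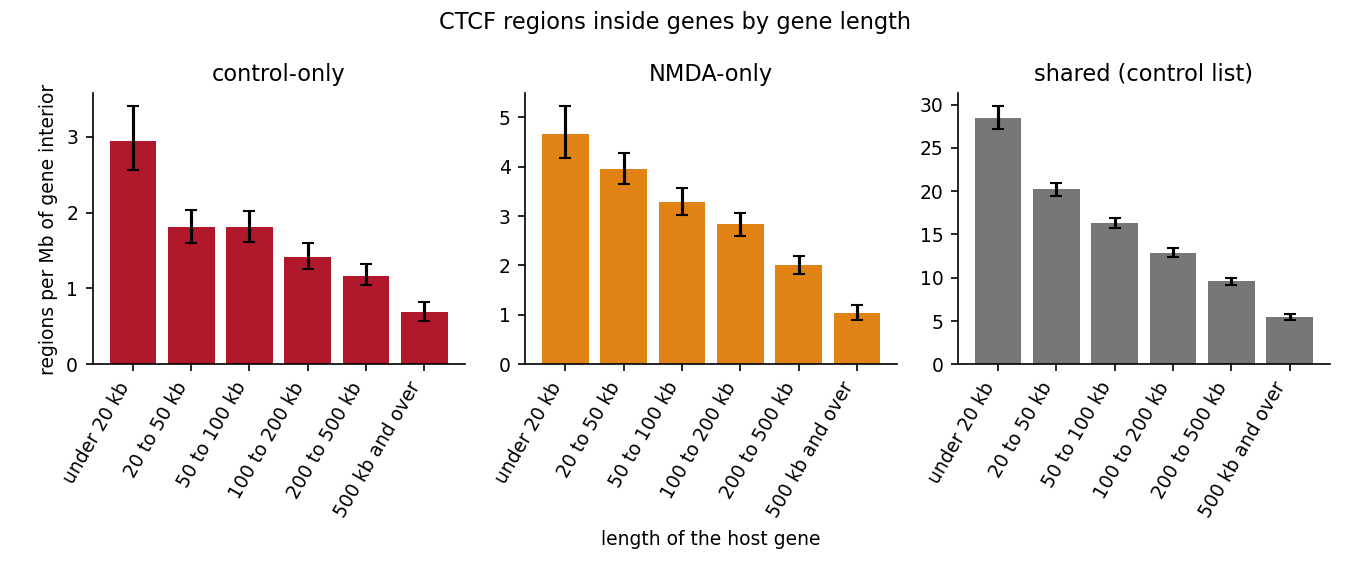
Regions per Mb of gene interior (y axes, each with its own scale) by length of the host gene (x axis) for control-only, NMDA-only and shared control regions. Bars are densities with exact 95% Poisson intervals. All 3 classes thin out with gene length, control-only regions with 2.95 per Mb in genes under 20 kb and 0.690 in those of 500 kb and over.

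The 4 genes with 4 control-only regions each were Cdh13, Rtn1, Rbms3 and Csmd2. Cdh13, which encodes a cadherin anchored to the membrane by a lipid, spans 1185 kb and also held 6 NMDA-only and 11 shared control regions. Its 4 control-only regions had −log10 p values of 60.7, 35.7, 61.2 and 82.1. Rtn1, which encodes a reticulon of the endoplasmic reticulum of neurons, spans 197 kb. It held its 4 with 1 NMDA-only and 1 shared region, so 4 of its 5 control regions were control-only. They had −log10 p values of 53.0, 88.6, 40.6 and 38.1.

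Rbms3, the gene of an RNA-binding protein, had 4 shared and 2 NMDA-only regions beside its 4 control-only ones, which had −log10 p values of 84.2, 39.5, 45.1 and 35.6. One of them (chromosome 9, 116976515 to 116976989) lay beside an NMDA-only region (116977365 to 116977839). Csmd2 had 6 shared and no NMDA-only regions, and its 4 had values from 37.6 to 72.2. In Insr, the gene of the insulin receptor, all 3 control regions in the interior were control-only (−log10 p 105, 53.0 and 43.2) and no NMDA-only region was listed there. Fbxw7, which encodes the substrate-binding subunit of a ubiquitin ligase, had 3 control-only regions (92.0, 120.0 and 39.2) and 2 NMDA-only ones (67.8 and 83.8 in the NMDA list), with 2 shared.

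In all 20 genes had 3 or more, 16 of them exactly 3, and of these 16 the 6 with the highest summed −log10 p are named here. Beside Insr and Fbxw7 they were Rabgap1l, the synaptic adhesion gene Sdk1, Rbfox1, which encodes a splicing factor of neurons, and the transcription factor gene Ebf2. Per length the densest of the genes with at least 3 was Pafah1b2, which encodes a subunit of an acetylhydrolase, with 3 in 45.4 kb of interior (−log10 p 58.1, 51.2 and 60.6). Tacc1, whose product binds the centrosome, had 3 in 99.9 kb, all of them weak (34.7, 46.8 and 35.3). With 3 or 4 regions a gene, counting error is wide, and the density at Pafah1b2 of 66.1 per Mb had an interval of 13.6 to 193. With only regions of a score of at least 830 in both lists, Cdh13 had 2 control-only regions and each of the other 9 named for their number of regions had 1.

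**Figure D3:**
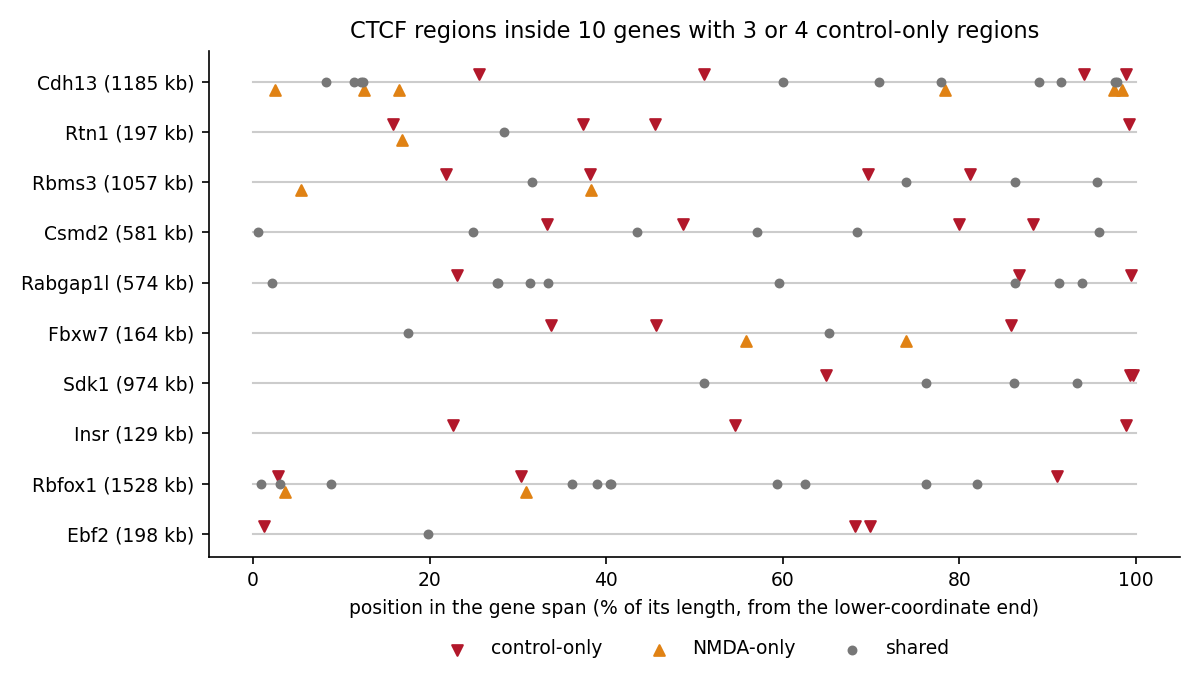
CTCF regions inside the 4 genes with 4 control-only regions and the 6 of 16 genes with 3 that had the highest summed −log10 p, by position along the gene span (x axis, % of its length from the end with the lower coordinate). Downward triangles are control-only, upward triangles NMDA-only and dots shared control regions. Cdh13 mixes 4 control-only, 6 NMDA-only and 11 shared regions, whereas Insr holds 3 control-only regions and no other.

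Genes with a control-only region inside often had other CTCF regions too. An NMDA-only region lay inside 348 of the 1303 host genes (26.7%, 24.4 to 29.2), and a shared control region inside 865 (66.4%, 63.8 to 68.9). All genes with an interior, weighted to the same length classes, had these in 23.3% and 59.9%, and unweighted in 11.4% and 37.4%.

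Along the gene, control-only regions were more often in the 20% nearest the 5′ end than shared ones. Strand could be read from the promoter table for 80.5% of host genes, which gave 1150 control-only regions with 1 such host. Of these, 24.5% (22.1 to 27.1) lay in the 20% of the gene nearest the 5′ end, against 21.1% (19.4 to 22.9) of NMDA-only and 19.2% (18.4 to 19.9) of shared control regions. The difference was 3.39 points (0.399 to 6.47) from NMDA-only and 5.35 points (2.83 to 8.02) from shared regions. Shared regions were instead most frequent in the 20% nearest the 3′ end, with 22.6%. There lay 17.3% (15.2 to 19.6) of control-only and a like 17.8% (16.2 to 19.5) of NMDA-only regions. By distance, 17.1% (15.1 to 19.4) of control-only regions lay within 5 kb of the 5′ end. The shares were 15.1% (14.4 to 15.8) in shared control and 14.6% (13.2 to 16.2) in NMDA-only regions, with intervals that overlap that of control-only regions. Shared control regions weighted to the signal of the control-only ones had 21.5% in the 20% nearest the 5′ end, closer to the 24.5% of control-only regions in the bins compared. Leaving out the regions at an annotated start of their host, without weighting to signal, the difference was 4.18 points (1.72 to 6.84) from shared regions. From NMDA-only regions it was 1.68 points (−1.26 to 4.73, an interval that includes 0). Both adjustments together were not computed.

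**Figure D4:**
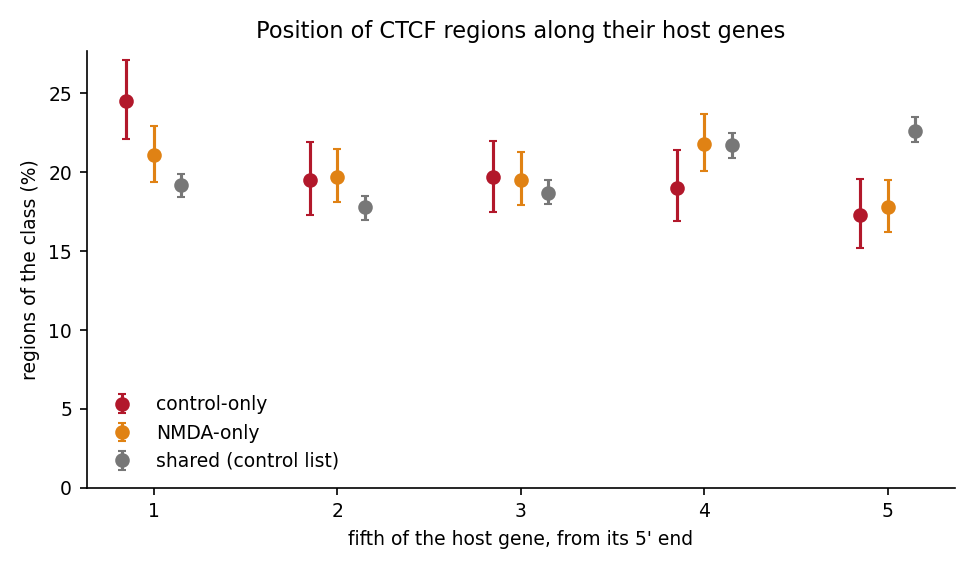
Position of CTCF regions along their host genes, as the share of each class (y axis, %) in each 20% of the gene span counted from its 5′ end (x axis). Points are control-only, NMDA-only and shared control regions with 95% Wilson intervals. Control-only regions stand at 24.5% in the part nearest the 5′ end and 17.3% in the part nearest the 3′ end, and shared regions at 19.2% and 22.6%. NMDA-only regions stand at 21.1% and 17.8%.

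Control-only regions also lay at alternative starts within genes more often than the other classes. An annotated start of the host lay within 1 kb of the summit in 110 of 1448 control-only regions inside genes (7.60%, 6.34 to 9.08), in 4.09% (3.41 to 4.92) of NMDA-only and in 5.43% (5.06 to 5.83) of shared control regions there. The difference was 3.50 points (2.00 to 5.13) from NMDA-only regions and 2.17 points (0.852 to 3.69) from shared regions. Shared control regions weighted to the same signal had 7.40%, beside 7.65% of the 1437 control-only regions in the bins compared, so at the same signal the shares were close. Some of the 110 summits lay little over 1 kb from a gene end, down to 1018 bp, so their annotated start can lie close to that end. The promoter table is not complete, and it covers starts of protein-coding genes and long noncoding RNAs. At Pvalb, the gene of a calcium-binding protein of interneurons, the only control region in the interior lay at such a start (chromosome 15, 78203909 to 78204600, −log10 p 85.0), and an NMDA region lay 0.626 kb away. Cadps2, which encodes a factor for the release of dense-core vesicles, had 1 of its 3 control-only regions at a start (chromosome 6, 23838156 to 23840552, 70.0). At Myt1l, which encodes a neuronal zinc finger factor, and at Unc13c the regions at a start had values of 63.2 and 55.7. Epb41l1, Rarb and Bdnf, whose sequences are printed above, belong to the same set.

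By chromosome the control-only share of control regions inside genes ran from 7.56% (6.17 to 9.25) on chromosome 11 to 12.3% on chromosomes 8 and 16. The density was lowest on the X chromosome, with 0.686 per Mb (0.463 to 0.979), and highest on chromosome 8 with 2.09 (1.71 to 2.54) and chromosome 4 with 2.07 (1.72 to 2.47). The share on the X chromosome was 10.9% (7.75 to 15.1), so control regions of both kinds were sparse there.

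The host genes were then described in 18 gene lists, for each of which the number of genes with a control-only region inside was set beside the number that all genes of the same length classes would give. No list was tested. Immediate early genes, the first to be switched on by synaptic activity, had none in the 27 members with an interior, where 0.797 would match all genes. Their 15 control regions in gene interiors were all shared, which allows a control-only share of up to 20.4%. Of the 24 later activity-regulated genes, 4 had one against 2.22. These were Sorcs1, a sorting receptor gene (chromosome 19, 50264263 to 50264891, −log10 p 89.5), the matrix proteoglycan gene Acan (44.4), Bdnf (44.2) and Rasgrp1, which encodes an activator of Ras (43.6).

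In genes of channels and receptors the control-only share had intervals that include the background of 9.83%. Potassium channel genes had control-only regions in 10 of 66 members against 9.50, and 12 of their 117 control regions (10.3%, 5.96 to 17.1) were control-only. The strongest lay in Kcnip4, Kcnip1 and Kcnma1, with −log10 p values of 72.3, 71.6 and 64.8. Calcium and sodium channel genes had 9 of 33 against 5.26, led by the sodium channel gene Scn8a (72.4), and Cacna2d2 had 2. Glutamate receptor genes, among them those of the NMDA receptors, had 5 of 26 against 6.25. Those were Grm4 (68.0), Grin3a (62.5), Grm3 (52.9), Grik4 (40.3) and Grm8 (35.9), of which Grin3a encodes an NMDA receptor subunit. GABA and glycine receptor genes had 3 of 19 against 3.35, with 4 of 24 control regions control-only (16.7%, 6.68 to 35.9), in Gabra2 (77.2), Gabrg3 (73.3) and Gabbr2.

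The same held for genes of synapse structure and cell contact. Synaptic adhesion and scaffold genes had 12 of 45 against 10.5, with Il1rapl2 (173) far ahead of Magi1 (87.3), Il1rapl1 (76.8) and Nrxn3 (73.9). Of the presynaptic release genes 9 of 44 had one against 7.43, and Unc13b, Cadps2 and Stxbp5 had more than 1. Of the axon guidance genes 12 of 57 had one against 10.1, led by the semaphorin receptor gene Nrp2 (117) and the semaphorin gene Sema5b (86.9). Cadherins and non-clustered protocadherins had 5 of 35 against 7.30, and 4 of their 8 regions lay in Cdh13.

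Lists of chromatin and transcription genes followed. Of 64 genes for histone modifiers, remodellers and DNA methylation, 15 had a control-only region inside against 7.30 (23.4% of genes, 14.7 to 35.1, against 11.4%), and 19 of their 124 control regions (15.3%, 10.0 to 22.7) were control-only. Setdb1, which encodes a histone methyltransferase, had the strongest (chromosome 3, 95349372 to 95350768, −log10 p 93.3), followed by the remodeller gene Chd4 (71.2). Arid1b and Arid1a, which encode alternative subunits of the BAF complex, had 3 and 2 (strongest 69.0 and 66.0). Developmental transcription factor genes were hosts in 21 of 68 against 12.5 (30.9%, 21.2 to 42.6, against 18.4%), and 28 of their 195 control regions (14.4%, 10.1 to 20.0) were control-only. Runx1t1 (169), Pax5 (115), Tcf4 (87.3) and Satb1 (78.4) led. These were the 2 of 18 lists whose region share had an interval above 9.83%, with no adjustment for the number of lists. The shares were not matched for signal, with which the control-only share fell steeply. Some genes also gave several regions, as with 3 in Arid1b and 3 in Ebf2. Of the CTCF, cohesin and topoisomerase genes 2 of 20 had one against 1.81, in Ctcf and Top2a (41.8).

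The region shares of the remaining lists have intervals that include 9.83%. Growth factor and Wnt pathway genes had 12 of 60 against 6.44 (20.0% of genes, 11.8 to 31.8, against 10.7%), with 12 of 102 control regions control-only (11.8%, 6.86 to 19.4), led by Fgf13 (97.6) and Egfr (76.4). Collagen and extracellular matrix genes had 10 of 50 against 7.06, led by Col5a2 (88.0). Markers of other cells that cortical cultures can hold gave too few regions to compare. Interneuron genes had 2 of 19 against 1.32, among them Pvalb, and 2 of their 14 control regions were control-only (14.3%, 4.01 to 39.9). Astrocyte genes had 1 of 15, in Fgfr3 (38.9), against 0.706, and none of the 15 oligodendrocyte genes had one against 0.705, with all 14 of their interior control regions shared.

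**Figure D5:**
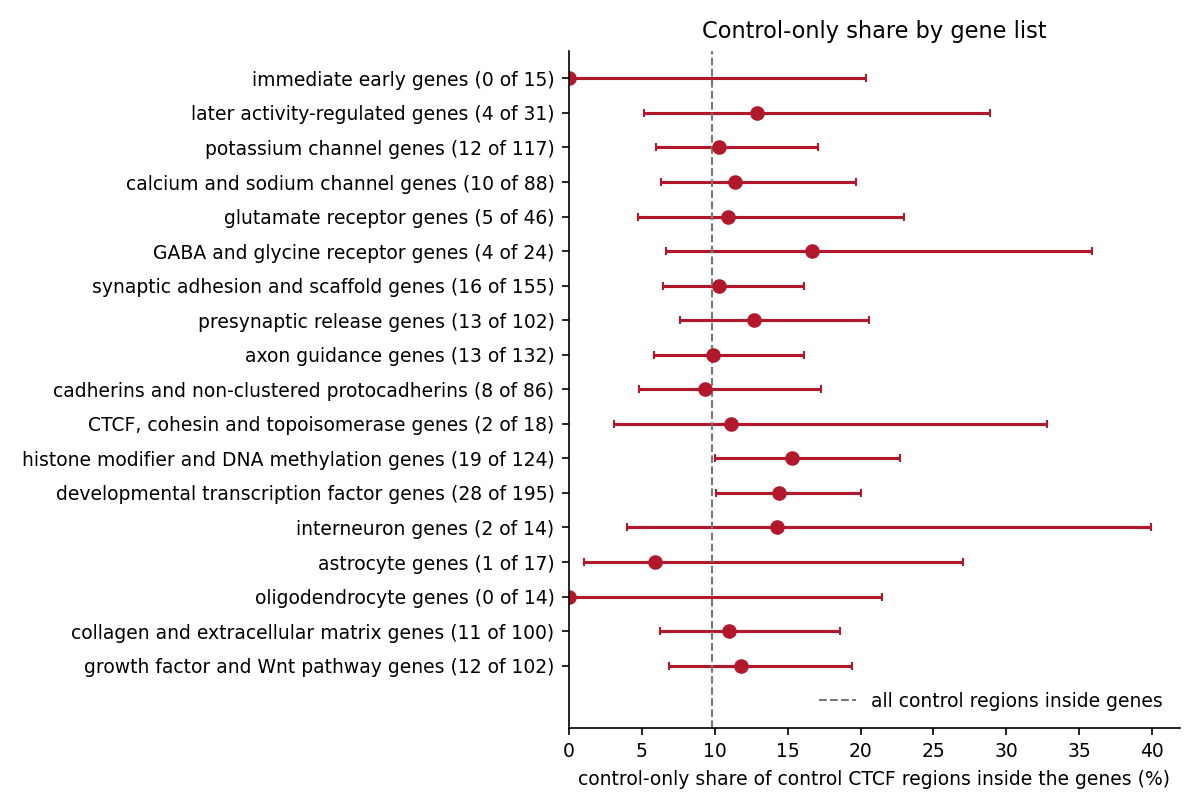
Control-only share of the control CTCF regions inside the genes of each list (x axis, %), with 95% Wilson intervals and the number of control-only regions of all control regions beside each name. The dashed line is the 9.83% of all control regions inside genes. Shares are not matched for signal. The intervals of 16 of 18 lists include the line, and those of histone modifier and developmental transcription factor genes start just above it at 10.0% and 10.1%.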

How the data were processed

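The submitters' processing notes name MACS2, BWA, SAMtools, Trimmomatic and FastQC, without versions, and the builds GRCm38.p6 and mm10. The authors deposited 1 region list per condition, labelled IDR (irreproducible discovery rate), a procedure that keeps regions ranked alike in both replicates. The deposited signal is a −log10 p-value, in the NMDA list the sum of 2 replicate columns to within 0.001 in 36186 of 36186 regions. The deposited score of reproducibility runs from 540 to 1000. These values grow with depth, so they were ranked only within a list. Inputs were not analysed here.

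Overlap of at least 1 bp was taken in Python 3.11.15 and checked with bedtools 2.31.1. Genes were the 21883 protein-coding spans of RefSeq GRCm38.p6. The interior is every base in a span and over 1 kb from all gene ends. Promoter windows and their strand came from RefSeq. Shares have Wilson, differences Newcombe, densities exact Poisson and medians binomial order-statistic intervals, all at 95%. Bins of signal needed 20 regions of each class. On simulated data 99.7% of removed and 100% of kept regions inside genes were recovered, and 933 to 960 of 1000 intervals held the true value. Kept regions were shifted by less than their width, so their recovery was fixed in advance. The draws for the intervals were independent, which neighbouring regions are not. The simulation thus checks the code and not the calls.

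The members, the 19 lists and the rule for named genes were chosen with earlier results of these data known. Named were the hosts of the 12 strongest regions, the 10 genes with the most regions (ties by summed −log10 p), the 5 densest with at least 3, at most 4 genes a list and those at the limits. Stxbp5, Myt1l, Unc13c, Grm8, Rnf217, Epha6, Tbc1d8 and the genes with printed sequences were chosen after their values were seen. Hosts known by model names alone were not named. Exons and introns were not used here, and the sequence under most regions was not analysed here, as no genome was used. One gene list and some host genes are not reported here.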

Additional observations from a re-analysis of the deposited data

How the results depend on the processing

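The share inside genes stayed below that at gene ends and above that between genes, with intervals that exclude 0, under all alternatives that gave a value, namely 7 for gene ends and 8 for between genes. Within bins of the same signal these differences shrank to −0.879 and 0.246 points, with no interval computed. Of the 12 strongest regions, 11 passed the stricter score of 830 and the Rabgap1l region, with 672, fell below it. That the 11 stayed control-only was fixed by their own scores, since a shortened NMDA list cannot add an overlap. Of the other 7 alternatives, 4 can only add regions and do not bear on whether these 12 stay control-only. Counts and levels moved with the definition. With sharing defined by a reciprocal overlap of 50%, the control-only share inside genes was 14.7%, the density 2.20 per Mb, the median percentile 15.2 and the median width 876 bp. With summits within 100 bp these were 15.7%, 2.34, 14.5 and 948 bp, for 2312 regions in 1970 genes. With the score of 830 in both lists they were 5.73%, 0.644, 7.32 and 931 bp, for 636 regions in 612 genes, of which 265 were among the 1448. Extending regions by 500 bp gave 9.06% and 1.35 per Mb, and an NMDA list as long as the control list 11.7% and 1.75. A limit of 2 kb from gene ends gave 1.35 per Mb and 760 bp, counting anywhere in a span 10.6%, 1.90 and 832 bp, and all gene types 1.33 per Mb. The causes were not tested. No paired analysis was possible because each condition is 1 list over both replicates, and for the same reason no replicate could be left out. Motif content around all summits was not run, as it needs a genome. The lists also differed in level, with a median −log10 p of 166 in the control and 90.9 in the NMDA list. The lowest values were 32.5 and 17.7. The unknown depth and these unlike levels limit every statement that a region is missing from the NMDA list.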

Other observations

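The summits of 77 control-only regions inside protein-coding genes (5.32%, 4.28 to 6.60) also lay in an annotated gene of another type, in 69 cases a long noncoding RNA, against 4.58% of NMDA-only and 5.58% of shared control regions inside genes. Of the 1448 control-only regions inside genes, 4 covered an annotated microRNA hairpin. No such count is given for shared or NMDA-only regions, so the 4 cannot be compared with a background. The Mir335 hairpin (chromosome 6, 30741299 to 30741396) lay in a region of the imprinted gene Mest with a −log10 p of 63.3, and the Mir7045 hairpin (chromosome 6, 125097024 to 125097086) in the region of Chd4 with 71.2. These genes were chosen after their values were seen.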
